A study of Mus musculus with 6 samples.

Results

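The matrix metalloproteases (MMPs), the ADAMTS proteases, the ADAMTS-like (ADAMTSL) proteins and the tissue inhibitors of metalloproteases (TIMPs) were followed in RNA from the growing end of the mouse incisor with and without Arid1a in Gli1-expressing cells. Members were taken by a rule on gene symbol that uses no measured value, though the families were chosen with earlier results of these data known. The count table held 44 of them among 25703 genes, with 16 MMP, 19 ADAMTS, 5 ADAMTSL and 4 TIMP genes, so that 35 were proteases. Of these, 41 passed the filter on low counts and were tested. Mmp21, Mmp24 and Adamts13 had at most 7 counts in any library and were not tested.

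The tested mice were Gli1-CreER;Arid1a fl/fl, written Arid1a cKO below, and the controls were Arid1a fl/fl, with 3 libraries of each genotype. Both groups were on the C57BL/6 background, were 6 weeks old, carried the floxed Arid1a allele and, per the labels, had 3 daily doses of tamoxifen (1.5 mg per 10 g each) when they were 1 month old. The controls lacked the CreER transgene, so the transgene and the loss of Arid1a cannot be told apart. Gli1-CreER recombines in Gli1-expressing cells and their progeny, while the RNA came from the whole proximal incisor, in which other cells keep Arid1a. Arid1a encodes a DNA-binding subunit of a SWI/SNF remodeller of chromatin, and the series asks how its loss in this lineage alters the incisor. Nothing in the labels ties each library to its own animal, and the p-values below reflect the spread among these libraries alone.

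MMPs are zinc proteases made as inactive precursors that cleave collagens and other matrix proteins. ADAMTS proteases are secreted relatives that trim procollagens, cut large proteoglycans or act on the fibrillin microfibrils. The ADAMTSL proteins share their ancillary domains but lack the protease domain, and several of them bind fibrillin. TIMPs occupy the active site of these enzymes, and TIMP3 is the member of the family that stays bound to the matrix and that also inhibits ADAMTS4 and ADAMTS5. The incisor of the mouse grows continuously, and its soft mesenchyme, periodontal attachment and surrounding bone are remodelled as it grows.

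The counts summed to between 29922013 and 37908478 in the Arid1a cKO libraries and to between 27300932 and 32677240 in the control libraries. Levels are given as CPM (counts per 1e+06 counts) on library sizes scaled by TMM. Arid1a stood at 136, 139 and 145 CPM in Arid1a cKO libraries 1 to 3, against 222, 249 and 223 CPM in control libraries 1 to 3. Its log2 fold change was -0.72 (SE 0.0677; edgeR quasi-likelihood test, adjusted p = 0.00802), and the transcript was therefore still present in the cKO tissue. The odontoblast marker Dspp ranged over 3412 to 4521 CPM in Arid1a cKO libraries and 1260 to 4332 CPM in control libraries, and the enamel gene Amelx over 34.8 to 634 CPM in Arid1a cKO and 134 to 1914 CPM in control. Both dental tissues were thus present in every library, in varying amounts. In whole tissue, fewer cells of a type and less RNA per cell cannot be told apart.

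An adjusted p of 0.05, the threshold used throughout, was passed by 9 of the members tested. They were Adamts18, Adamtsl5 and Timp1, which were higher in Arid1a cKO, and Mmp17, Adamts4, Adamts12, Adamts17, Adamtsl4 and Timp3, which were lower. The 9 genes were 22% of the 41 members tested, while 3.96% of all 19613 genes tested passed. The 3 that rose were 7.32% against 1.5% of all genes, and the 6 that fell were 14.6% against 2.46% of all genes. At an unadjusted p under 0.05, 20 members passed. In 8 members every Arid1a cKO library lay above every control library, and in 11 every one lay below, which are 19.5% and 26.8% of those tested, beside 13.8% and 15.3% of all genes. The median log2 fold change was -0.15 over the members tested, within a range of -1.34 to 3.79, and 0.00 over all genes. Neither the members nor the background genes were matched on level, and the families were chosen with earlier results of these data known.

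**Figure D1:**
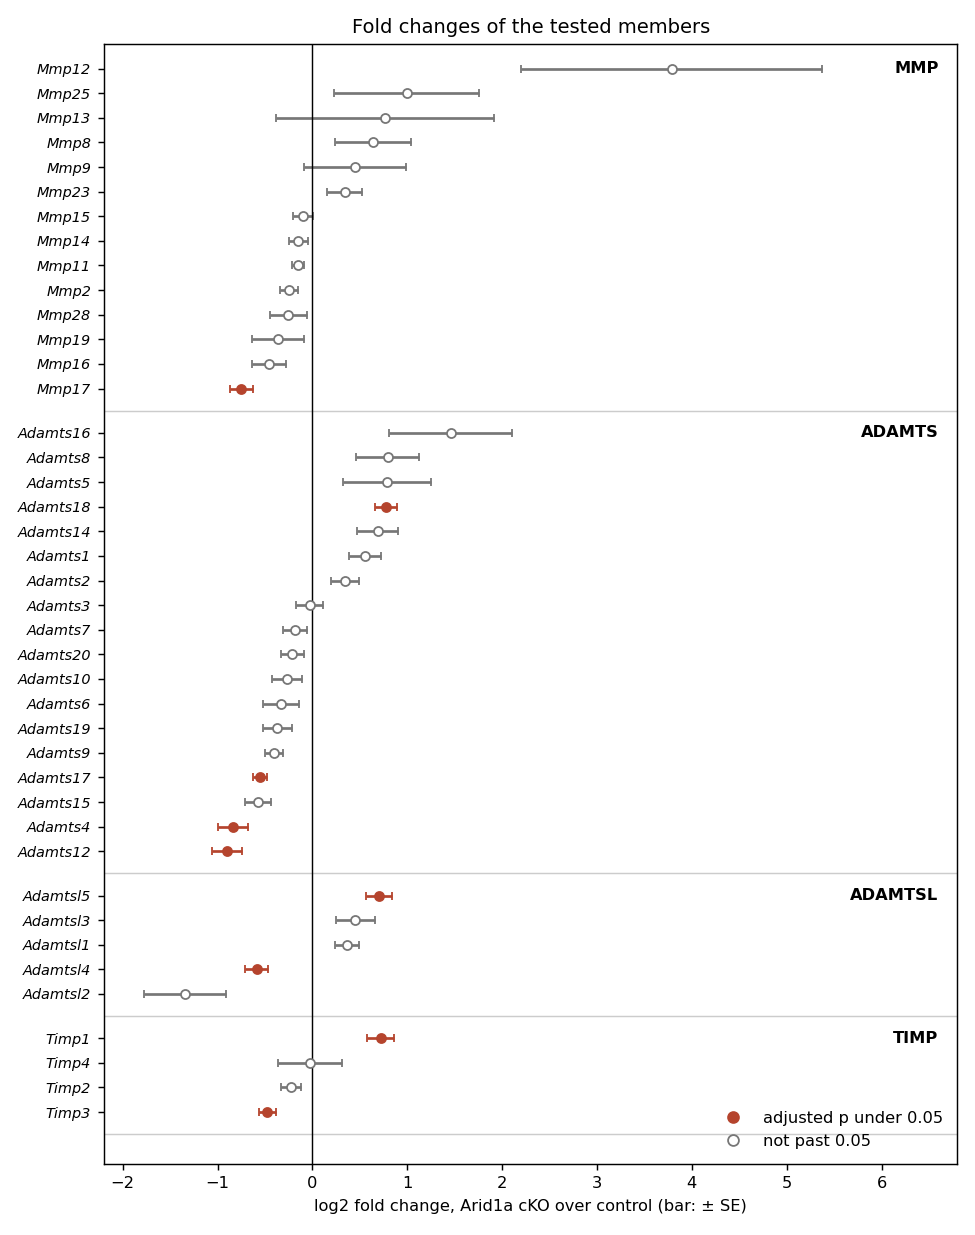
Log2 fold change of Arid1a cKO over control (x axis, bars ± SE of the edgeR fit) for the 41 tested members, grouped as MMP, ADAMTS, ADAMTSL and TIMP genes. Filled points passed an adjusted p of 0.05: 3 members lie right of 0 and 6 lie left of it, while Mmp12 at 3.79 has the widest bar of the plot.

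Sequences upstream of the annotated gene start are shown for 5 members, to set pairs of the same family that moved in opposite directions beside each other and beside Mmp13, whose libraries differed by the largest factor among the 10 most abundant members per length. They are the 250 bases before the RefSeq start in build GRCm38.p6, 5′ to 3′ on the strand of the gene. That start differs from the gene spans given below for Timp3, whose window runs into its span, and for Adamts18, whose window lies apart from its span. A window was matched by symbol for 29 of the 44 members, and Mmp17 and Adamts4 are among those without one. Capitals mark matches to TGANTCA (AP-1), TGTGGT (RUNX) or TATAAA, the letters of the TATA box, on either strand, so that ACCACA is the RUNX match on the opposite strand. Mmp13 lies at chr9:7272264-7272513 on the plus strand, Timp1 at chrX:20869916-20870165 on the plus strand, Timp3 at chr10:86300162-86300411 on the plus strand, Adamts17 at chr7:66839485-66839734 on the plus strand and Adamts18 at chr8:113848840-113849089 on the minus strand.
Mmp13: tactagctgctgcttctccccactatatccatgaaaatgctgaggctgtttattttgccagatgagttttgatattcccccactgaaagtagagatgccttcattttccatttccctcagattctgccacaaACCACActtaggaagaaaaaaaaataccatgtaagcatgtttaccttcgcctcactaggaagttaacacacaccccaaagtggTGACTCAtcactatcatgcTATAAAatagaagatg
Timp1: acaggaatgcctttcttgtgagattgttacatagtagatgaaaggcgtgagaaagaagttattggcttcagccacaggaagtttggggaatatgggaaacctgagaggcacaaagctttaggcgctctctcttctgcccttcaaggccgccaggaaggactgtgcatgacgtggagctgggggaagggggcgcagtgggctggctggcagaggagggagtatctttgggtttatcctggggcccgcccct
Timp3: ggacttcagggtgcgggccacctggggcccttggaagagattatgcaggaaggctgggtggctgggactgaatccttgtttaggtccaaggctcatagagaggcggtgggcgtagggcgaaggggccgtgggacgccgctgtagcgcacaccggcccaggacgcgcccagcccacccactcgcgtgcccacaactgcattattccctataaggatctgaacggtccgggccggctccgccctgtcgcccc
Adamts18: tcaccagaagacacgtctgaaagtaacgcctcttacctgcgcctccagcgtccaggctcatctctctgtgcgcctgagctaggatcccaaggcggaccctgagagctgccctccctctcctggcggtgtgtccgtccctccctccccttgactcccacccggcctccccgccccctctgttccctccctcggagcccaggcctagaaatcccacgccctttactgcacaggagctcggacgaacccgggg
Adamts17: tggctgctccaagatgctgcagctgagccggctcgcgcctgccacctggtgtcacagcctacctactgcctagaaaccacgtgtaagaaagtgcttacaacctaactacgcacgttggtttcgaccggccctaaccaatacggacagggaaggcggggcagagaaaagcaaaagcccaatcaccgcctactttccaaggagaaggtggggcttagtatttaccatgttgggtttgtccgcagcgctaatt
The Mmp13 window held all the searched motifs, with first bases at -118 (RUNX), -35 (AP-1) and -16 (TATA) from the start, and none of the others held a match. Over windows of 300 bases that also take in 50 bases after the start, AP-1 letters were in 6.45% of 31 member windows and 7.81% of 32851 windows in all. RUNX letters were in 9.68% against 16.8%, and TATA letters in 19.4% against 13.6%. GC content of the upstream bases was 54.4% for Timp1 and 65.6% for Timp3, and 65.2% for Adamts18 and 54.4% for Adamts17, so the member that rose was the richer in GC in the ADAMTS pair and the poorer in the TIMP pair. Upstream GC had a median of 63.2% over the member windows and 52.4% over all windows, and Mmp13 had 40.4% with 1 CpG.

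Among the MMPs, 1 gene fell, none rose and 13 of the 14 tested did not pass, with a median log2 fold change of -0.12. Mmp17 (chr5:129584169-129611099) encodes a membrane-type MMP held at the cell surface by a lipid anchor. It measured 9.02, 8.23 and 7.32 CPM in the Arid1a cKO libraries, against 15.4, 12.8 and 13.1 CPM in the control libraries. No Arid1a cKO library reached the lowest control library, and the means were 8.19 ± 0.851 and 13.8 ± 1.42 CPM (SD, n = 3 each). The edgeR fit gave a log2 fold change of -0.75 (SE 0.122; edgeR, adjusted p = 0.0211), a level 1.68-fold lower in Arid1a cKO. It did not pass when Arid1a cKO library 2 or 3 or control library 1 or 3 was left out, with adjusted p between 0.0537 and 0.0792, nor with osteoclast marker expression as a covariate (0.0515).

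The abundant MMPs did not pass the test. Mmp2, the gelatinase that degrades denatured collagen, measured 489, 441 and 532 CPM in Arid1a cKO, against 592, 610.2 and 537 CPM in control. All of its Arid1a cKO libraries lay below the control libraries, by a narrow margin at the nearest pair, and the log2 fold change was -0.25 (SE 0.0954; edgeR, adjusted p = 0.178). Mmp14, the membrane-type MMP that activates pro-MMP2 at the cell surface, measured 394, 386 and 346 CPM in Arid1a cKO and 470.1, 369 and 409 CPM in control. The groups overlapped (log2 fold change -0.15, SE 0.105, adjusted p = 0.447). Mmp16, another membrane-type MMP, also overlapped between groups, at 19.9, 27.7 and 23.6 CPM in Arid1a cKO and 39.7, 25.7 and 32.4 CPM in control (log2 fold change -0.46, SE 0.182, adjusted p = 0.203). Mmp11, which is activated by furin inside the cell, was the steadiest of the members: it measured 22.8, 22.0 and 22.5 CPM in Arid1a cKO and 24.8, 25.4 and 24.6 CPM in control. Its groups did not overlap, yet the difference was small and did not pass (log2 fold change -0.15, SE 0.0635, adjusted p = 0.21).

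Mmp13 is the main collagenase of rodent skeletal tissues and was among the abundant members. It measured 510.1, 349 and 489 CPM in the Arid1a cKO libraries, against 14.3, 312 and 468 CPM in the control libraries. Control library 1 alone was low, the other 5 libraries lay between 312 and 510.1 CPM, and the highest library held 35.6 times the lowest. Its log2 fold change was 0.76 with an SE of 1.15 (edgeR, adjusted p = 0.754), and 0.21 without control library 1 (adjusted p = 0.674). The same library was lowest for Mmp9, a gelatinase of osteoclasts and leukocytes chosen after its values were seen, at 31.0, 19.4 and 20.0 CPM in Arid1a cKO and 5.83, 20.0 and 25.8 CPM in control (log2 fold change 0.45, SE 0.539, adjusted p = 0.682). It was also lowest for Adamts5, described with the ADAMTS proteases.

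Mmp12 and Mmp25, which were singled out after their values were seen, were high in 1 Arid1a cKO library. Mmp12, the elastase of macrophages, measured 20.3, 0.623 and 1.32 CPM in Arid1a cKO and 0.287, 0.544 and 0.803 CPM in control. Mmp25, a membrane-type MMP known from neutrophils, measured 5.94, 0.893 and 1.09 CPM in Arid1a cKO and 1.21, 1.2 and 1.61 CPM in control. Only Arid1a cKO library 1 stood above the rest for either gene. The log2 fold change of Mmp12 was 3.79 (SE 1.59, adjusted p = 0.252) and 0.83 without that library, and that of Mmp25 was 0.99 (SE 0.763, adjusted p = 0.497) and -0.44 without it. Mmp12 lies 61.0 kb from Mmp13 on chromosome 9 on the same strand, but the libraries in which these neighbours stood apart were not the same.

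Markers of other cells were measured in the same libraries. The neutrophil marker Retnlg measured 16.6 CPM in Arid1a cKO library 1 and at most 0.11 CPM in each of the other libraries, and it was at 0 in control library 1. Over the 6 measured of 10 neutrophil markers, the sum ranged over 0.363 to 18.4 CPM in Arid1a cKO and 0.511 to 0.924 CPM in control, and the defining markers S100a8 and S100a9 were at 0.688 CPM or below in every library. Macrophage markers, with 9 of 9 measured, summed to 622 to 985 CPM in Arid1a cKO, highest in library 1, and to 517 to 719 CPM in control. Of 8 osteoclast markers, the sum was 84.3 to 121 CPM in Arid1a cKO and 99.4 to 121 CPM in control, while Ocstamp, Dcstamp, Oscar and Calcr were at 0.663 CPM or below. Acp5, the tartrate-resistant phosphatase of osteoclasts, measured 27.2, 14.8 and 14.8 CPM in Arid1a cKO and 9.33, 14.3 and 20.4 CPM in control (log2 fold change 0.37, adjusted p = 0.603). Ctsk, the main collagen-degrading cathepsin of osteoclasts, measured 80.3, 62.5 and 65.6 CPM in Arid1a cKO and 97.0, 76.6 and 92.2 CPM in control (-0.35, adjusted p = 0.151). Control library 1 thus held the lowest Acp5, as it did the lowest Mmp9, and the highest Ctsk. Every other osteoclast marker was also lowest in control library 1, among them Atp6v0d2 (0.127 CPM) and Itgb3 (3.70 CPM). Ocstamp, Dcstamp, Oscar and Calcr had only 1 or 2 counts there. Ctsk made up most of the sum in each library. The mean log2 level of the tested osteoclast markers was 2.34 in control library 1 and 3.18 to 3.89 in the others. Some markers of other tissues were also lowest in control library 1, among them Acta2 (66.1 CPM), Myh11 (27.3 CPM) and Krt5 (192 CPM). Others were highest there, among them Col1a1 (27872 CPM) and Alpl (1181 CPM). With osteoclast marker expression as a covariate, the log2 fold changes were 0.14 for Mmp9, 1.89 for Mmp12, 0.79 for Mmp13 and 0.20 for Mmp25. None of these passed. That fit gives the genotype difference only, and the part of these cells in the levels of Mmp9, Mmp12, Mmp13 and Mmp25 was not tested.

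**Figure D2:**
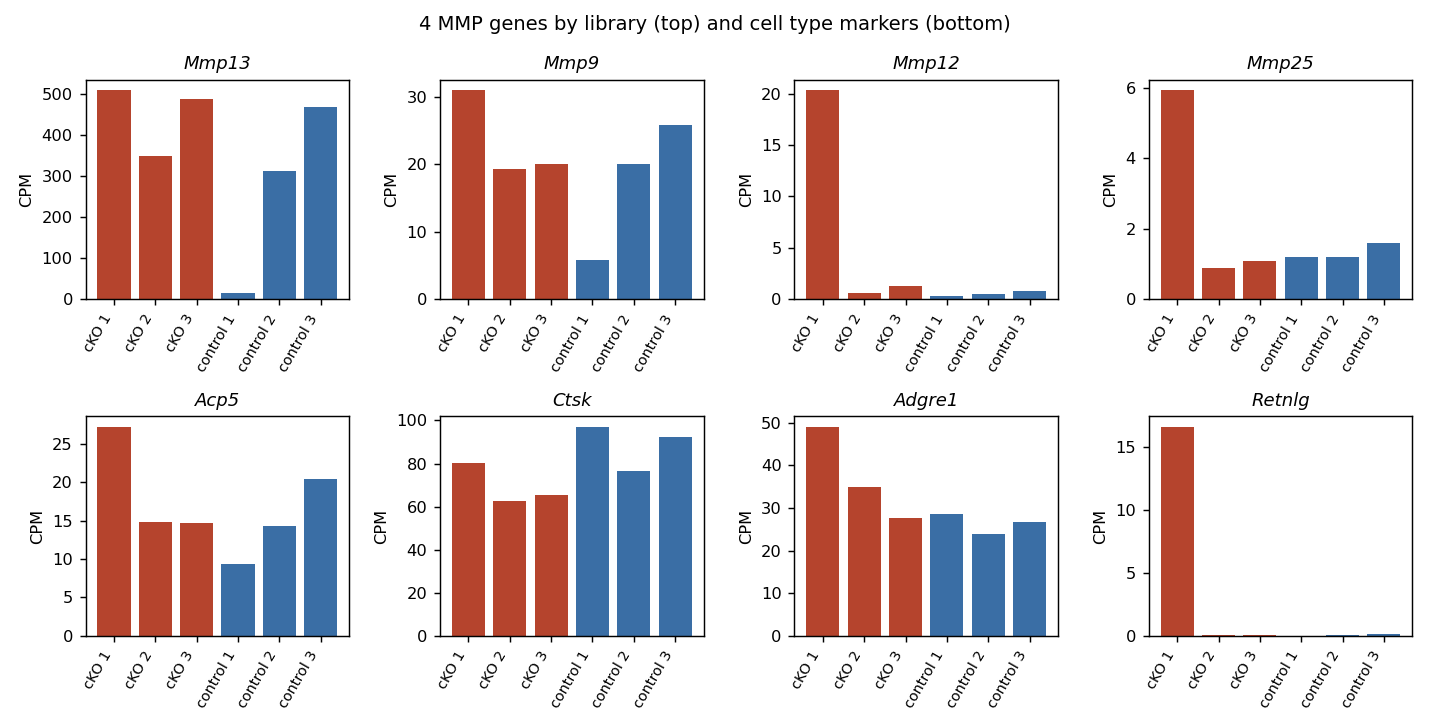
CPM in each of the 6 libraries (bars, Arid1a cKO left of control) for Mmp13, Mmp9, Mmp12 and Mmp25 in the top row and for the osteoclast genes Acp5 and Ctsk, the macrophage gene Adgre1 and the neutrophil gene Retnlg in the bottom row. Mmp13 is at 14.3 CPM in control library 1 only, and Mmp12, Mmp25 and Retnlg stand out in Arid1a cKO library 1, at 20.3, 5.94 and 16.6 CPM.

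The other tested MMPs, Mmp8, Mmp15, Mmp19, Mmp23 and Mmp28, had log2 fold changes between -0.37 and 0.64, and their groups overlapped. Of the 5 membrane-type MMPs tested 1 fell, and of the 2 secreted collagenases, 2 gelatinases and 5 remaining secreted MMPs tested none passed.

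In the ADAMTS proteases, 1 gene rose, 3 fell and 14 of the 18 tested did not pass. The median log2 fold change of the 18 was -0.20. The gene that rose was Adamts18 (chr8:113697126-113848738), a secreted protease with few established substrates. It measured 16.3, 16.5 and 15.1 CPM in Arid1a cKO, against 9.56, 10.4 and 7.96 CPM in control. Every Arid1a cKO library stood above every control library, the means were 16.0 ± 0.785 and 9.31 ± 1.24 CPM (SD, n = 3 each), and the level was 1.72-fold higher in Arid1a cKO. On the log2 scale the change was 0.78 (SE 0.117; edgeR, adjusted p = 0.0175). It did not pass without Arid1a cKO library 3 or control library 1 or 3, at adjusted p of 0.051 to 0.0625. Adamts16, which is grouped with it here as outside the substrate classes, had a wider spread, at 7.19, 2.71 and 2.77 CPM in Arid1a cKO and 0.446, 2.36 and 1.86 CPM in control, and did not pass (adjusted p = 0.259).

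Adamts17 (chr7:66839735-67153171), of the fibrillin-associated group whose human gene is mutated in a Weill-Marchesani-like syndrome, was the protease with the smallest p. It measured 59.8, 61.9 and 56.2 CPM in Arid1a cKO, against 94.6, 80.0 and 86.8 CPM in control. The genotypes were well apart, with means of 59.3 ± 2.86 and 87.1 ± 7.3 CPM (SD, n = 3 each). The edgeR fit gave a log2 fold change of -0.56 (SE 0.0759; edgeR, adjusted p = 0.0142), or 1.47-fold lower, and it was lost without Arid1a cKO library 3 (adjusted p = 0.0577) or control library 3 (0.0525). The other fibrillin-associated proteases did not pass, and each of the 4 in this group, Adamts6, Adamts10, Adamts17 and Adamts19, had a negative log2 fold change, between -0.56 and -0.27. Adamts10, which acts on fibrillin-1 microfibrils, measured 171, 274 and 218 CPM in Arid1a cKO and 262, 257 and 279 CPM in control, and these overlapped (log2 fold change -0.27, SE 0.159, adjusted p = 0.37).

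Adamts12 (chr15:11064790-11349231), which cleaves cartilage oligomeric matrix protein, measured 26.8, 36.0 and 28.8 CPM in Arid1a cKO, against 68.7, 51.1 and 51.3 CPM in control. The highest Arid1a cKO library stayed below the lowest control library. Means were 30.5 ± 4.87 and 57.1 ± 10.1 CPM (SD, n = 3 each), 1.87-fold lower in Arid1a cKO, with a log2 fold change of -0.90 (SE 0.156; edgeR, adjusted p = 0.0303). The call held without Arid1a cKO library 2 (0.0327) and was lost when any other single library was left out (0.0588 to 0.108). Adamts7, the other protease known for this substrate, overlapped between genotypes, at 5.90 to 7.04 CPM in Arid1a cKO and 6.70 to 7.93 CPM in control (log2 fold change -0.19, adjusted p = 0.435).

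Adamts4 (chr1:171250421-171260637), or aggrecanase-1, was the proteoglycan-cleaving protease that fell, 1 of 7 tested. It measured 20.4, 20.3 and 16.0 CPM in Arid1a cKO, against 40.0, 26.8 and 34.7 CPM in control. The groups did not overlap, although the control libraries differed by more than the Arid1a cKO libraries did. Their means were 18.9 ± 2.5 and 33.8 ± 6.63 CPM (SD, n = 3 each). Its log2 fold change was -0.84 (SE 0.162; edgeR, adjusted p = 0.0391), a 1.79-fold lower level. It passed without control library 2 (0.0279) but not when any other library was left out (0.075 to 0.11), nor with dental epithelium (0.0515) or osteoclast (0.0893) marker expression as a covariate.

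**Figure D3:**
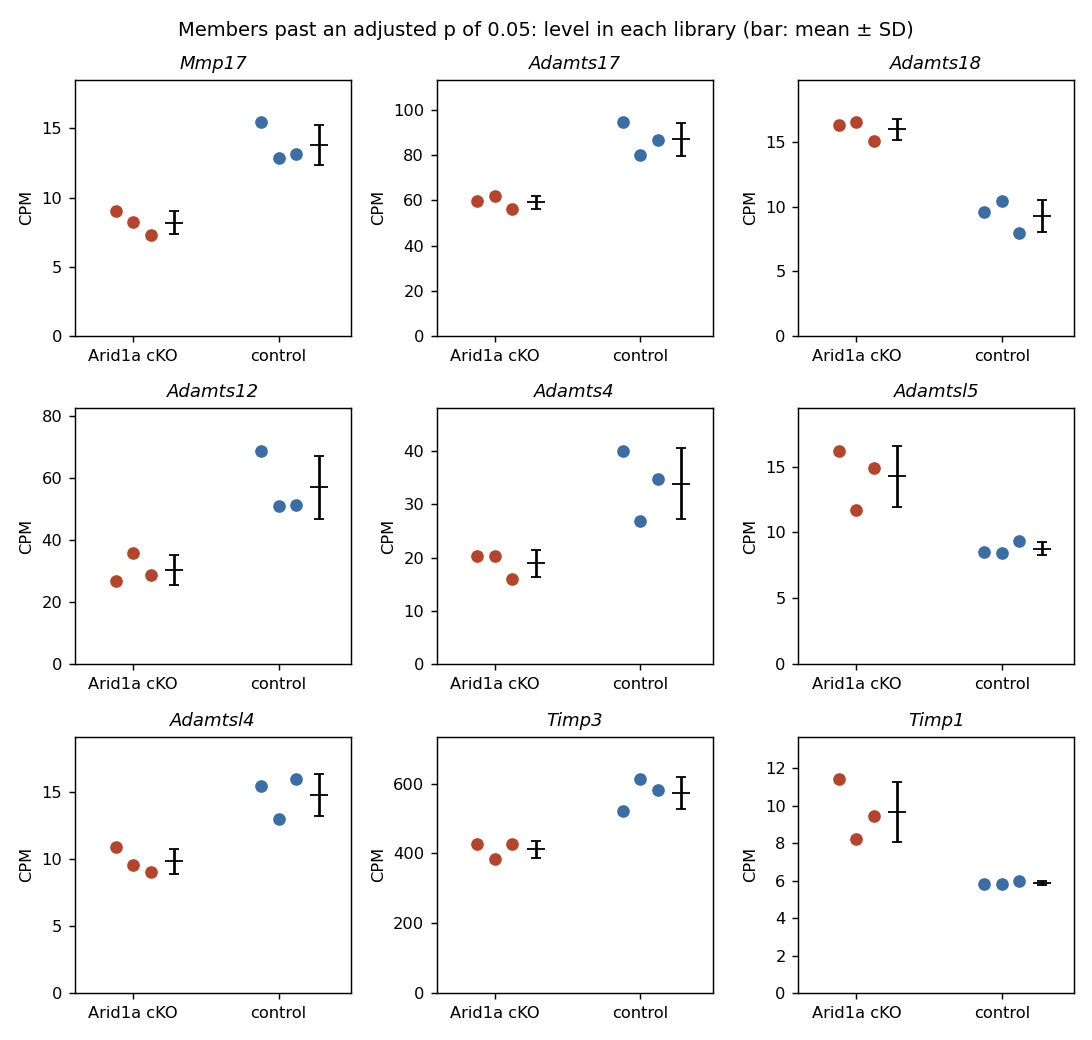
CPM in each library (points) with the mean ± SD of 3 libraries beside them, Arid1a cKO left of control, for the 9 members past an adjusted p of 0.05. In every panel the 3 Arid1a cKO libraries lie on one side of the 3 control libraries, above them for Adamts18, Adamtsl5 and Timp1 and below them for the other 6.

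Of the other 6 proteoglycanases none passed, while Adamts1 and Adamts8 were wholly higher in Arid1a cKO and Adamts9 and Adamts15 wholly lower. With Adamts4 counted, 28.6% of the 7 were wholly higher and 42.9% wholly lower, beside 13.8% and 15.3% of all genes tested. Adamts9, which cleaves versican and aggrecan, measured 157, 159 and 139 CPM in Arid1a cKO, against 206, 176 and 220.5 CPM in control, with a log2 fold change of -0.41 (SE 0.0958; edgeR, adjusted p = 0.0575). Adamts15, a versican-cleaving protease, measured 6.37, 7.31 and 5.74 CPM in Arid1a cKO, against 9.97, 10.5 and 8.4 CPM in control (log2 fold change -0.57, SE 0.141, adjusted p = 0.0645). Both genes had their Arid1a cKO libraries below the control libraries without passing, and both passed in DESeq2 (adjusted p = 0.00322 for Adamts9 and 0.0151 for Adamts15). Adamts1, which also cleaves versican, lay the other way, at 42.4, 29.0 and 44.8 CPM in Arid1a cKO and 23.4, 27.8 and 28.1 CPM in control (log2 fold change 0.55, SE 0.169, adjusted p = 0.118). Its groups were apart by a narrow margin, and it passed in DESeq2 (adjusted p = 0.0181). DESeq2 called 1905 of 18185 genes in all, against 777 of 19613 in the edgeR test.

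Adamts5 and Adamts8 were chosen after their values were seen, as neighbours of the genes just described. Adamts5, the major aggrecanase of mouse cartilage, lies 53.1 kb from Adamts1 on chromosome 16 and on the same strand. It measured 32.8, 19.2 and 28.5 CPM in Arid1a cKO and 6.53, 22.7 and 17.5 CPM in control, with a log2 fold change of 0.79 (SE 0.467, adjusted p = 0.385). Adamts8 lies 20.1 kb from Adamts15 on chromosome 9 on the opposite strand, and was low throughout, at 1.03, 0.858 and 0.594 CPM in Arid1a cKO and 0.365, 0.575 and 0.502 CPM in control (log2 fold change 0.79, SE 0.331, adjusted p = 0.214). The neighbours Adamts15 and Adamts8 thus had log2 fold changes of opposite sign, and neither passed. Adamts20, the remaining protease of this class, overlapped between genotypes (log2 fold change -0.21, adjusted p = 0.355).

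None of the 3 procollagen N-proteinases passed. These enzymes remove the amino-terminal propeptide of fibrillar procollagens. Adamts2 measured 169.8, 117 and 130.3 CPM in Arid1a cKO and 96.9, 112 and 119 CPM in control (log2 fold change 0.35, SE 0.147, adjusted p = 0.229). Adamts3 measured 57.6, 86.2 and 82.7 CPM in Arid1a cKO and 78.2, 78.3 and 74.7 CPM in control (log2 fold change -0.03, SE 0.145, adjusted p = 0.931). Both overlapped between genotypes. Adamts14, the remaining one, had its Arid1a cKO libraries above the control libraries, at 18.9 to 24.3 CPM in Arid1a cKO against 9.17 to 16.9 CPM in control, and a log2 fold change of 0.69 that did not pass (adjusted p = 0.125).

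Of the ADAMTSL proteins 1 rose, 1 fell and 3 did not pass, and the median log2 fold change was 0.37. Adamtsl5 (chr10:80339110-80348412), a secreted protein that binds fibrillin and heparin, measured 16.2, 11.7 and 14.9 CPM in Arid1a cKO, against 8.51, 8.48 and 9.35 CPM in control. The spread was wider in Arid1a cKO, where every library lay above the control libraries, with means of 14.3 ± 2.31 and 8.78 ± 0.493 CPM (SD, n = 3 each). On the log2 scale the change was 0.70 (SE 0.135; edgeR, adjusted p = 0.0347), or 1.62-fold higher. It passed without Arid1a cKO library 2 (0.0281), and not when any other library was left out (0.0699 to 0.115), in limma-voom (0.0572), in limma with pseudocount 5 (0.0537) or with the osteoclast covariate (0.0794).

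Adamtsl4 (chr3:95676201-95687917), a fibrillin-1 binding protein whose human gene is mutated in ectopia lentis, measured 10.9, 9.5 and 9.04 CPM in Arid1a cKO, against 15.4, 12.9 and 15.9 CPM in control. The groups were apart, with means of 9.81 ± 0.96 and 14.8 ± 1.59 CPM (SD, n = 3 each). The edgeR fit gave a log2 fold change of -0.59 (SE 0.119; edgeR, adjusted p = 0.0396), or 1.50-fold lower. It passed without Arid1a cKO library 1 (0.037), and not without any other (0.0504 to 0.128), in limma on the deposited normalized values (0.0529 and 0.0608 at pseudocounts 1 and 5) or with the osteoclast covariate (0.0703).

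Adamtsl2, which binds fibrillin and a latent TGF-beta binding protein, had the lowest log2 fold change of the members tested, -1.34, and did not pass (SE 0.435; edgeR, adjusted p = 0.155). It measured 17.5, 28.9 and 19.4 CPM in Arid1a cKO and 76.5, 26.2 and 64.4 CPM in control. Control library 2 lay among the Arid1a cKO libraries, and the other control libraries lay well above them. The same library held the lowest Dspp of the 6, at 1260 CPM, and the part of odontoblasts in the level of Adamtsl2 was not tested. Without control library 2 Adamtsl2 passed (edgeR, adjusted p = 0.0435). Adamtsl1 measured 37.1, 34.4 and 38.1 CPM in Arid1a cKO and 24.0, 34.0 and 27.1 CPM in control (log2 fold change 0.37, SE 0.125, adjusted p = 0.143), and it too passed without control library 2 (0.0446). Adamtsl3 overlapped, at 17.1, 11.7 and 14.0 CPM in Arid1a cKO and 7.87, 12.8 and 10.6 CPM in control (log2 fold change 0.45, SE 0.205, adjusted p = 0.255).

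Among the inhibitors, Timp3 fell, Timp1 rose and Timp2 and Timp4 did not pass, with a median log2 fold change of -0.13. Timp3 (chr10:86300372-86349506) measured 425, 384 and 426 CPM in Arid1a cKO, against 522, 612 and 582 CPM in control. Its genotypes did not overlap, with means of 412 ± 23.9 and 572 ± 46 CPM (SD, n = 3 each). Its log2 fold change was -0.47 (SE 0.0888; edgeR, adjusted p = 0.0321), a 1.39-fold lower level of an abundant transcript. It passed without Arid1a cKO library 1 (0.0463) and not when any other library was left out (0.0554 to 0.102). The labels do not state whether counting used strand, the gene lies within Syn3 on the opposite strand, and 21.3% of its exon bases overlap exons of Syn3, which measured at most 2.24 CPM in any library.

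Timp1 (chrX:20870166-20874735), a soluble inhibitor that acts poorly on some membrane-type MMPs, measured 11.4, 8.23 and 9.43 CPM in Arid1a cKO, against 5.83, 5.84 and 5.99 CPM in control. The control libraries were almost equal and all lay below the Arid1a cKO libraries, with means of 9.69 ± 1.61 and 5.89 ± 0.0897 CPM (SD, n = 3 each). On the log2 scale the change was 0.72 (SE 0.143; edgeR, adjusted p = 0.0374), or 1.65-fold higher. It passed without Arid1a cKO library 2 (0.042), and not without any other (0.0655 to 0.117), in limma-voom (0.0562), in limma with pseudocount 5 (0.0528) or with the osteoclast covariate (0.0882).

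Timp2, which inhibits MMP2 and also takes part in its activation by MMP14, measured 491, 375 and 413 CPM in Arid1a cKO and 490.4, 503 and 501 CPM in control. Arid1a cKO library 1 lay among the control libraries and the other 2 lay below them (log2 fold change -0.22, SE 0.105; edgeR, adjusted p = 0.26). Timp4 was at 0.904, 0.608 and 0.43 CPM in Arid1a cKO and 0.77, 0.547 and 0.659 CPM in control, at the low end of the members (log2 fold change -0.03, SE 0.342, adjusted p = 0.976). It overlaps Syn2 on the opposite strand over 1.5% of its exon bases, and Syn2 fell (log2 fold change -1.05, adjusted p = 0.0147).

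Levels can be compared between genes only per length, so CPM was divided by the kilobases of exon of each gene. On this scale Mmp2 stood first over the 6 libraries, at 144 ± 13.5 CPM per kb in Arid1a cKO and 172 ± 11.3 CPM per kb in control (SD, n = 3 each). Mmp13 was in place 2, at 168 ± 32.7 CPM per kb in Arid1a cKO and 99.0 ± 86.2 in control, and by its spread it was not separated from Mmp2 or from Timp2. Timp2 came next at 109 ± 15.2 CPM per kb in Arid1a cKO and 128 ± 1.75 in control. Mmp14 followed at 63.0 ± 4.3 in Arid1a cKO and 69.8 ± 8.55 in control, and then Timp3 at 50.6 ± 2.93 in Arid1a cKO and 70.2 ± 5.65 in control. Mmp14 and Timp3 overlapped in their control levels. Adamts10 was the most abundant ADAMTS gene, in place 6 at 26.8 ± 6.27 CPM per kb in Arid1a cKO and 32.3 ± 1.4 in control, followed by Adamts3, Adamts2, Adamts9 and Adamts17. Dividing by the longest transcript instead kept the order of the first 6 and moved the mean level of Mmp14 to 122 from 66.4 CPM per kb, that of Timp3 to 104 from 60.4, and that of Adamts10 to 59.1 from 29.5.

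The 9 members that passed stood at very different levels. Timp3 was in place 5, Adamts17 in place 10 and Timp1 in place 11 of 44, while Mmp17 was in place 29 and Adamts18 in place 33. Summed per length, the TIMP genes gave 191, 153 and 169 CPM per kb in Arid1a cKO, against 197, 211 and 207 CPM per kb in control, and the ADAMTS genes gave 107, 121 and 114 in Arid1a cKO, against 129, 123 and 129 in control. Neither pair of sums overlapped. The MMP genes summed to 446, 359 and 431 CPM per kb in Arid1a cKO and 292, 394 and 442 in control, which did overlap, as did the ADAMTSL sums of 13.3, 12.6 and 12.5 in Arid1a cKO against 17.9, 12.5 and 17.3 in control. The ratio of the MMP to the TIMP sum was 2.33, 2.35 and 2.55 in Arid1a cKO and 1.49, 1.87 and 2.13 in control. With Mmp13 left out of the MMP sum it was 1.33, 1.49 and 1.47 in Arid1a cKO and 1.46, 1.32 and 1.29 in control, and the groups overlapped.

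**Figure D4:**
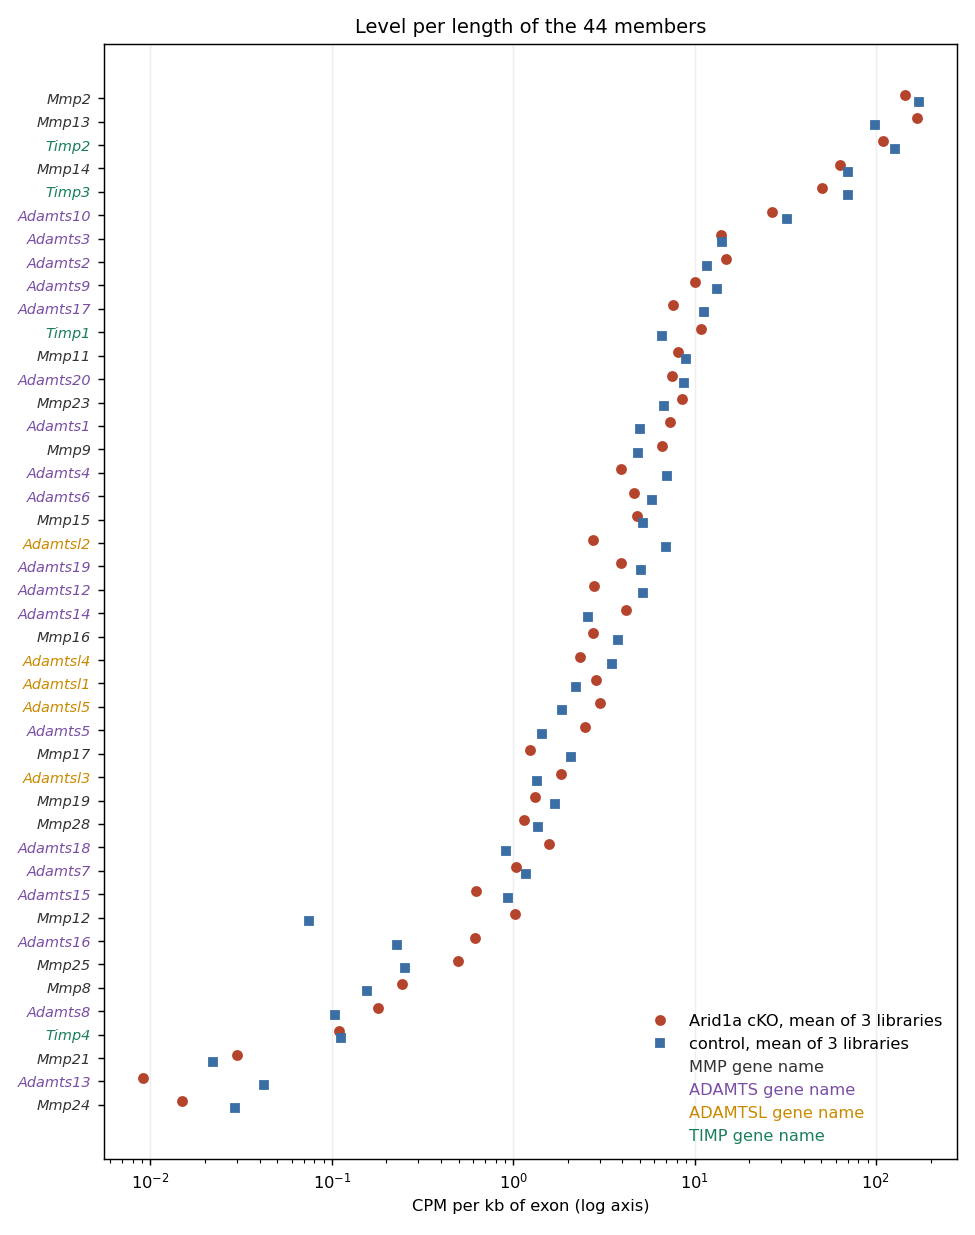
Mean level per length of each of the 44 members (CPM per kb of exon, log axis; circles Arid1a cKO, squares control, mean of 3 libraries each), ordered by the mean of all 6 libraries. Mmp2, Mmp13, Timp2, Mmp14 and Timp3 lie at the top, above 50 CPM per kb in both genotypes, and Mmp21, Adamts13 and Mmp24 at the bottom.

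Genes that act with the proteases were followed through fixed lists, also chosen with earlier results of these data known. The lists held 57 measured genes, of which 56 were tested: 1 rose, 8 fell and 47 did not pass. These are 1.79% and 14.3% of the 56, beside 1.5% and 2.46% of all genes tested. Without Arid1a cKO library 3 or control library 3, none of them rose and 2 fell. Of 8 genes listed as other inhibitors of metalloproteases, Spock1 rose, Spock2 fell and 6 did not pass. Spock1 and Spock2 encode testicans, matrix proteoglycans linked to the control of membrane-type MMPs, but testican-2, from Spock2, is known for relieving their inhibition by other testicans rather than for inhibiting them. Spock1 measured 64.9, 63.2 and 55.2 CPM in Arid1a cKO, against 15.5, 28.3 and 20.9 CPM in control (log2 fold change 1.51, SE 0.209; edgeR, adjusted p = 0.0199). Its lowest Arid1a cKO library was well above its highest control library, and it did not pass without any 1 of the Arid1a cKO libraries or without control library 3 (adjusted p up to 0.077). Spock2 measured 100.5, 96.6 and 101.7 CPM in Arid1a cKO, against 161, 147 and 153 CPM in control (log2 fold change -0.62, SE 0.0592, adjusted p = 0.00802), and passed with each library left out. Reck, a membrane-anchored inhibitor of MMPs, stood at a log2 fold change of -0.25 with an adjusted p of 0.135.

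In the list of 11 genes that govern the activation of the precursors, Plat fell and 10 did not pass, while 9 of the 11 log2 fold changes were positive. Wholly higher in Arid1a cKO were 27.3% of the 11 and wholly lower 9.09%, beside 13.8% and 15.3% of all genes tested. Plat, the tissue plasminogen activator, measured 20.6, 23.6 and 27.1 CPM in Arid1a cKO, against 36.7, 32.7 and 31.7 CPM in control (log2 fold change -0.50, SE 0.111; edgeR, adjusted p = 0.0497), and was lost when any library was left out (0.0604 to 0.151). The proprotein convertase Pcsk6 (log2 fold change 0.75, adjusted p = 0.0884) was among those that did not pass. None of the 3 endocytic clearance receptors passed, with log2 fold changes of -0.31 for Lrp1, -0.19 for Mrc2 and 0.07 for Cd44. Among 5 procollagen C-proteinases and enhancers, Bmp1, the procollagen C-proteinase itself, fell to 189, 209 and 187 CPM in Arid1a cKO, against 307, 241 and 293 CPM in control (log2 fold change -0.53, SE 0.102, adjusted p = 0.035). Bmp1 passed in 1 of the 6 fits that left out a library (adjusted p up to 0.118), and its relatives Tll2 (log2 fold change 0.50, adjusted p = 0.314) and Tll1 (0.76, adjusted p = 0.469) did not pass.

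Of 12 fibrillin and microfibril partners, Fbln2, Ltbp3 and Fbn2 fell and 9 did not pass, and 7 of the 12 log2 fold changes were negative and 5 positive. Fibulin-2, encoded by Fbln2, measured 258, 236 and 242 CPM in Arid1a cKO, against 415, 434 and 392 CPM in control (log2 fold change -0.75, SE 0.0735; edgeR, adjusted p = 0.00802), and passed with each library left out. Ltbp3, a binding protein of latent TGF-beta, had a log2 fold change of -0.54 (SE 0.0754, adjusted p = 0.0148, 0.0629 at most with a library left out). Fbn2, which encodes fibrillin-2, had one of -0.59 (SE 0.108, adjusted p = 0.0294, 0.0951 at most with a library left out). Of the 12, 41.7% were wholly lower in Arid1a cKO and 16.7% wholly higher, beside 15.3% and 13.8% of all genes tested. Fbn1 (log2 fold change -0.50; edgeR, adjusted p = 0.0661) and Mfap2 (-0.17, adjusted p = 0.146), chosen after their values were seen, were wholly lower without passing. Chosen in the same way, Ltbp2 and Thsd4 were wholly higher in Arid1a cKO without passing. Ltbp2, a fibrillin-binding relative of Ltbp3, measured 154, 107 and 131 CPM in Arid1a cKO, against 21.2, 55.3 and 87.2 CPM in control (log2 fold change 1.27, SE 0.515, adjusted p = 0.24). Thsd4, which encodes ADAMTSL6, measured 148, 95.6 and 142 CPM in Arid1a cKO, against 39.3, 89.4 and 88.0 CPM in control (0.83, SE 0.356, adjusted p = 0.252). None of the 7 proteoglycan genes tested passed, although 6 of the 7 log2 fold changes were negative. Versican (Vcan) measured 1058, 1574 and 1678 CPM in Arid1a cKO, against 2308, 2930.1 and 2210 CPM in control, groups that did not overlap (log2 fold change -0.79, SE 0.194, adjusted p = 0.0678). Dcn (-0.46, adjusted p = 0.103) and Hapln1 (-0.65, adjusted p = 0.112) did not pass either.

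Of 10 transmembrane ADAM genes, Adam33 and Adam22 fell and 8 did not pass. Adam33 measured 7.90, 6.25 and 6.27 CPM in Arid1a cKO, against 11.03, 16.2 and 13.7 CPM in control (log2 fold change -1.0, SE 0.168; edgeR, adjusted p = 0.0233). Adam22, which lacks an active protease site, had a log2 fold change of -0.49 (SE 0.101, adjusted p = 0.0418), and Adam12 one of -0.30 (adjusted p = 0.0772). Leaving out a library ended the Adam33 call in 4 of 6 fits (adjusted p up to 0.0887) and the Adam22 call in every one (0.0673 to 0.113).

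**Figure D5:**
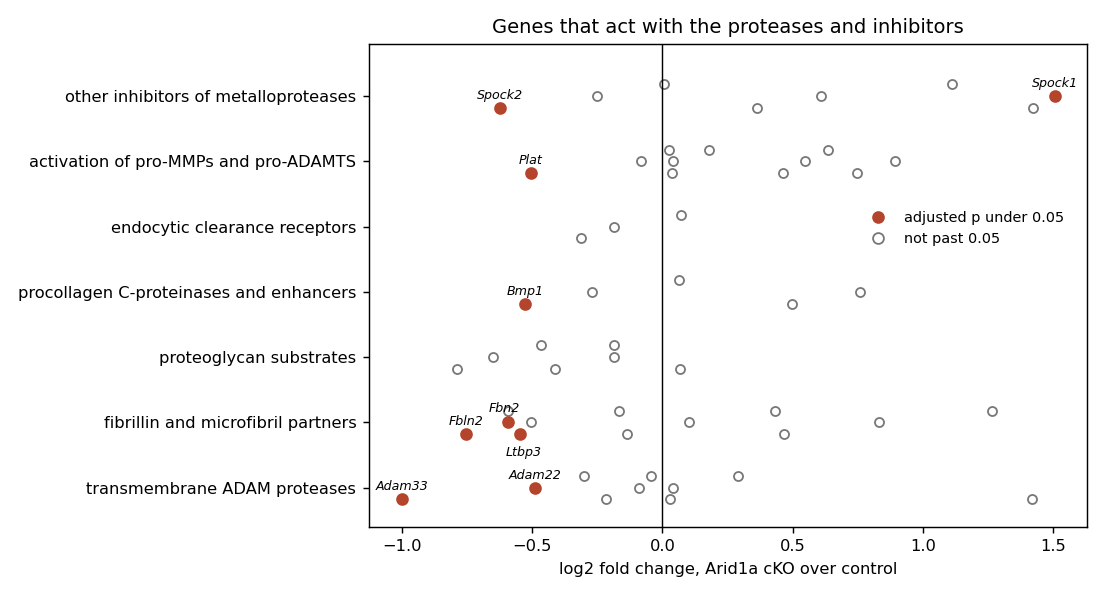
Log2 fold change of Arid1a cKO over control (x axis) for the 56 tested genes of the 7 lists of protease partners and substrates (rows). Filled points passed an adjusted p of 0.05: Spock1 at 1.51 is right of 0, and the other 8, from Adam33 at -1.0 to Adam22 at -0.49, are left of it.

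Markers of other tissues were measured beside these genes. Of 8 dental follicle and periodontal ligament markers, all measured, Fmod and Aspn fell and 6 did not pass, and 3 of the 8 log2 fold changes were positive. Their sum was 957 to 1055 CPM in Arid1a cKO and 1617 to 1789 CPM in control, but Fmod set that order. Fmod alone measured 361, 532 and 406 CPM in Arid1a cKO, against 1424, 1126 and 1269 CPM in control, and the other 7 summed to 694, 475 and 551 CPM in Arid1a cKO and 365, 491 and 452 CPM in control. Tnmd (log2 fold change 0.60; edgeR, adjusted p = 0.199) and Pthlh (0.35, adjusted p = 0.0687) were wholly higher in Arid1a cKO without passing. Pth1r was wholly lower without passing (-0.23, adjusted p = 0.0849). With Fmod and Aspn counted, 37.5% of the 8 were wholly lower and 25% wholly higher, beside 15.3% and 13.8% of all genes tested. Chondrocyte markers, 6 of 7 measured, summed to 395 to 461 CPM in Arid1a cKO and 610.1 to 689 CPM in control. Sox9 fell (log2 fold change -0.55; edgeR, adjusted p = 0.0138) and 5 did not pass. Those were Cnmd (-1.84, adjusted p = 0.0559), Col9a1 (-0.51), Col2a1 (0.60), and Acan (-0.41) and Hapln1 (-0.65), which also belong to the proteoglycan list. Wholly lower in Arid1a cKO were 66.7% of the 6 chondrocyte markers and wholly higher 16.7%, beside 15.3% and 13.8% of all genes tested. Osteoblast and osteocyte markers, 6 of 6 measured, summed to 992 to 1182 CPM in Arid1a cKO and 1248 to 2105 CPM in control, with Alpl lower and Sost higher, while their mean log2 levels overlapped between the genotypes. Of 7 pericyte and smooth muscle markers, Myh11 rose (0.80; edgeR, adjusted p = 0.0463), Notch3 fell (-0.43, adjusted p = 0.0139) and 5 did not pass, with sums of 825 to 1037 CPM in Arid1a cKO and 983 to 1069 CPM in control. The share of the 7 wholly lower in Arid1a cKO was 57.1% and wholly higher 28.6%, beside 15.3% and 13.8% of all genes tested. Dental epithelium markers, 9 of 9 measured, had sums that overlapped, at 1258 to 2775 CPM in Arid1a cKO and 1032 to 4356 CPM in control, and 1 of them, Epcam, rose (log2 fold change 0.47; edgeR, adjusted p = 0.0199). Odontoblast and pulp markers, 7 of 7 measured, summed to 27033 to 29467 CPM in Arid1a cKO. In control they summed to 40719, 16106 and 31893 CPM. Nes fell (-0.86, adjusted p = 0.0359) and 6 did not pass. The part of these tissues in the lower levels of Mmp17, Adamts4, Adamts12, Adamts17, Adamtsl4 and Timp3, or of the matrix genes, was not tested. With dental epithelium marker expression as a covariate, 8 of the 9 members still passed, and with osteoclast marker expression as a covariate 4 did. Over all genes tested, 1027 and 451 passed in these fits, against 777 without a covariate. No fit had connective tissue, cartilage, bone, odontoblast, or pericyte and smooth muscle markers as a covariate.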

How the data were processed

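RNA from the proximal incisor was sequenced in 6 libraries, with single-end reads on a NextSeq500, per the labels' protocols. STAR 2.6.1d, Partek and the genome build mm10 were used, per the submitters' processing notes. The sources used here name neither the annotation release nor whether counting used strand; the 44 members have the gene spans of GENCODE release M21. Estimated counts of 25703 genes, as the authors deposited them, are whole to within 0.01 in 54% to 57.6% of the values, depending on the library, and were used for the main test. A second deposited table gives a normalized signal for 21456 genes, which equals the count plus 1 divided by 1 factor per library, to within 0.000674%.

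Estimated counts were rounded. Genes were kept by filterByExpr (minimum count 10), which left 19613, libraries were scaled by TMM (factors 0.961 to 1.04), and genotypes were compared with the two-sided quasi-likelihood test of edgeR 4.0.16 in R 4.3.3 with robust estimation and no covariate. Benjamini-Hochberg adjustment took in every gene tested (threshold 0.05). SE was computed as |log2 fold change|/√F, and the fitted biological variation had a common coefficient of 15.8%. At this depth the spread between libraries limits the precision of all but the lowest members. The fit was checked on simulated counts, where the smallest changes were recovered least often, so a gene that did not pass may still differ. Figures were drawn in Python 3.11.15 with matplotlib 3.10.9, and alternatives used DESeq2 1.42.0 and limma 3.58.1. Levels per length use the exon union of GENCODE M21.

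Every member past the threshold is named. In each family the text also names up to 3 members with the highest level per length and up to 3 with the smallest p among the rest, and up to 3 genes of each partner list. Mmp9, Mmp12, Mmp25, Adamts5 and Adamts8 were added after their values were seen. The members and lists were chosen with earlier results of these data known. A planned search of protein motifs was not made. A result for 1 partner gene that this rule names is not reported here. Library numbers follow accession order and only name libraries. Overlaps with genes on the opposite strand make Adamts4, Adamts7, Adamts8, Adamts9, Mmp11, Mmp12, Mmp19, Mmp24, Mmp28, Timp3 and Timp4 uncertain. The alternatives were limma-voom, limma on the deposited signal (log2, pseudocount 1 or 5), DESeq2, scaling by RLE or upper quartile, unrounded counts, no low-count filter or 1 CPM required everywhere, robust estimation off, covariates for dental epithelium or osteoclast markers, each library left out in turn, and the longest transcript as length.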

Additional observations from a re-analysis of the deposited data

How the results depend on the processing

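The edgeR test called 3 members higher and 6 lower. DESeq2 called 5 higher and 8 lower, adding Adamts1, Adamts9, Adamts14 and Adamts15. It called 1905 of 18185 genes in all, against 777 of 19613 in the edgeR test. Limma-voom and limma with pseudocount 5 each called 1 higher, and the osteoclast covariate left 1 higher and 3 lower. Over all genes these settings called 666, 617 and 451, and the cause was not tested. With 1 library left out, with fewer libraries and less power by construction, 0 to 4 were called higher and 0 to 5 lower, and none without Arid1a cKO library 3 or control library 3, where 165 and 187 genes passed in all. Partner genes, whose alternatives were added after seeing the data, numbered 1 higher and 8 lower. DESeq2 called 3 higher and 14 lower, the dental epithelium covariate gave 3 higher, and leaving out a library gave 0 to 1 higher and 2 to 5 lower. Of 535 values of the 30 named members under the 18 alternatives, 471 kept their direction and side of the threshold. The 9 calls held in 96 of 108 values under other settings and in 15 of 54 with a library left out. Signs turned, none past the threshold, for Adamts3 (-0.14 to 0.13 with a library left out, 0.04 with the osteoclast covariate), Mmp25 (-0.44 to 1.41), Timp4 (-0.35 to 0.19, with 0.03 and 0.11 within that range) and Cd44 (-0.0917 to 0.197 with a library left out, -0.0413 with the osteoclast covariate).

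No paired analysis was possible because the numbers in the sample titles share fewer than 2 values between the genotypes. The protocol in the labels speaks of 3 pairs but does not say which libraries form them, so every p is unpaired. With 3 libraries a group, no sample was tested as an outlier. Members below about 1 CPM, such as Timp4, Mmp8 and Adamts8, are limited by depth.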
